A study of Mus musculus with 12 samples.

Results

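The 7 genes described here, Neurog2, Neurod1, Neurod2, Neurod4, Neurod6, Olig2 and Bhlhe22, encode basic helix-loop-helix (bHLH) transcription factors of developing neurons. They were chosen by name, and all 7 were found among the 38720 genes measured. RNA was sequenced from retinas of P0 C57/BL6 pups whose dissociated cells were split with magnetic beads against Thy-1 (CD90) into retinal ganglion cells (RGCs) and the remaining cells (non-RGCs). The mKO mice were Math5-Cre;Ezh2 fl/fl, with Cre knocked into the Math5 (Atoh7) locus and loxP sites around the Ezh2 exons that encode the catalytic SET domain. The comparison group is labelled wild type (WT), and whether those pups carried the floxed alleles without Cre is not given in the labels. Each genotype and fraction had 3 libraries from independent RNA extractions, 12 in all, and the number of pups behind an extraction is not given in the sources used here. Because Cre follows Math5, only cells of the Math5 lineage are targeted, and the fractions also hold other cells.

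Factors of this family pair with the broadly expressed E proteins and bind the E-box, a 6-base DNA motif written CANNTG. In retinal progenitors, proneural members such as Neurog2 and Atoh7 start neurogenesis and switch on Notch ligands, and members of the NeuroD group act later, as newborn cells become photoreceptors, amacrine cells, bipolar cells or RGCs. Hes proteins repress proneural genes downstream of Notch, and Id proteins hold E proteins away from their partners. The comparison of mKO with WT asked which genes changed in RGCs when Ezh2, the methyltransferase of Polycomb repressive complex 2, was targeted in Math5-expressing cells.

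Values are normalized reads, that is, reads per gene divided by the library's size factor as set by the authors within each fraction. Total gene reads ran from 7139633 to 13014004 per library, and the libraries of each group are lettered A to C from the deepest to the shallowest, so that a letter links no libraries between groups. Ezh2 itself had 1354, 1476 and 1443 normalized reads in mKO RGCs and 1190, 1206 and 1678 in WT RGCs, and these groups overlapped, as did 1889, 2107 and 2509 in mKO non-RGCs and 2115, 2149 and 1683 in WT non-RGCs. The log2 difference was 0.09 in RGCs (SE 0.133, adjusted p = 0.637 in limma) and 0.13 in non-RGCs (SE 0.146, adjusted p = 0.584). A read count over the whole gene cannot show the loss of the floxed exons alone. The authors reported lower Ezh2 in P0 mKO RGCs by qPCR and by Western blot. They also described a change of Ezh2 in the RNA-seq of these RGCs, where the values above overlapped between genotypes. Thy1, the antigen of the beads, had 2208 to 2519 normalized reads in WT RGCs and 1422 to 1426 in mKO RGCs, against 4.51, 1.94 and 9.38 in WT non-RGCs and 67.0, 79.6 and 93.2 in mKO non-RGCs. Thy1 RNA was thus lower in mKO than WT RGCs and higher in mKO than WT non-RGCs, by 3.86 on the log2 scale in the latter (SE 0.465, adjusted p = 0.0048). The labelled fractions differed in their markers, and 11 RGC markers summed to 2531 to 2655 RPM (gene reads scaled to 1000000 per library) in WT RGCs and 511 to 539 in WT non-RGCs.

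In GENCODE M21 on GRCm38, Neurog2 lies at chr3:127633135-127635631, Neurod1 at chr2:79452521-79456751, Neurod2 at chr11:98325415-98329648, Neurod4 at chr10:130268152-130280240, Neurod6 at chr6:55677822-55681263, Olig2 at chr16:91225457-91228677 and Bhlhe22 at chr3:18054174-18057517. All are protein-coding, with 1 exon in Bhlhe22 and 2 in each of the others, and reads were counted over whole genes. RefSeq promoter windows were found for 6 of the 7 genes, and Bhlhe22 is named only. The 250 bases before the start are shown for the called factors with the largest log2 difference in each direction in RGCs (Neurod2 and Neurod6) and for Neurog2 and Olig2, which had their highest level in the same WT library within each fraction, 5′ to 3′ on the gene's own strand in GRCm38.p6, with each E-box in capitals. The windows are chr11:98329646-98329895 on the minus strand for Neurod2, chr6:55681264-55681513 on the minus strand for Neurod6, chr3:127632886-127633135 on the plus strand for Neurog2 and chr16:91225300-91225549 on the plus strand for Olig2.
Neurod2: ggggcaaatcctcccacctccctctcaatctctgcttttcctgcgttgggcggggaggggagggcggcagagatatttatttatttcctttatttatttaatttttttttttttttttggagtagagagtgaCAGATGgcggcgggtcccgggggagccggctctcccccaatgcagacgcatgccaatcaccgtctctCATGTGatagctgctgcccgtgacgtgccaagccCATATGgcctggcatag
Neurod6: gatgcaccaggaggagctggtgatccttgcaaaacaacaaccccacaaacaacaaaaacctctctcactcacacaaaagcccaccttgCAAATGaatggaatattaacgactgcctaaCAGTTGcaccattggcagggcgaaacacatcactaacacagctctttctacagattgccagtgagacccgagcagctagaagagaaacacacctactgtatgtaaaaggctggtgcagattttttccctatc
Neurog2: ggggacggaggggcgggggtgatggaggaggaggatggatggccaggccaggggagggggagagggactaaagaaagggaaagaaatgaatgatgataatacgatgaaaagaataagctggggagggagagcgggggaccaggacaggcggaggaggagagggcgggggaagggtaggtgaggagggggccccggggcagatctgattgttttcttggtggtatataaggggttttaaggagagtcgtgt
Olig2: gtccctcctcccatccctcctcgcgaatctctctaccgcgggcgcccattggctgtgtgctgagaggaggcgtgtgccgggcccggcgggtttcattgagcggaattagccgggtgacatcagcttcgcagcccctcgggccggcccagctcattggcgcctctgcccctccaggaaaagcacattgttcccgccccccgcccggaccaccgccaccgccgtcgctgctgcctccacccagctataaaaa
Neurod2 holds 3 E-boxes, CAGATG 118 bases, CATGTG 51 bases and CATATG 17 bases before the start. Neurod6 holds 2, CAAATG 162 bases and CAGTTG 132 bases before it, Neurod1 holds 1, and Neurog2 and Olig2 hold none. The motif reads as CANNTG on both strands, and 66.2% of 32851 promoters of the same length hold at least 1, while 12.2% hold 3 or more. A match is a description of the letters and does not show binding.

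In RGCs, 3 of the 7 factors passed the test: Neurod6 rose 2.33-fold in mKO, and Neurod2 and Neurod1 fell 1.41-fold and 1.27-fold. The other 4 did not pass, with log2 differences from -0.59 to 0.02. All 7 were among the 16085 genes tested (a mean of at least 10 normalized reads in either genotype, limma on log2(normalized reads + 1), called at a Benjamini-Hochberg adjusted p under 0.05). Over those genes, 16.3% were called higher and 21.2% lower in mKO, so that 1 of 7 higher and 2 of 7 lower are near the background. The median log2 difference was -0.35 over the 7 factors and -0.00 over all genes.

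Neurod6, a late NeuroD factor that marks a subset of amacrine cells, had 55.0, 74.7 and 58.3 normalized reads in mKO RGCs, from 63, 81 and 62 reads. WT RGCs had 23.3, 27.1 and 28.0 normalized reads, from 23, 25 and 24 reads. All mKO libraries lay above all WT libraries, and the WT libraries lay close together. The log2 difference was 1.22 (SE 0.212, 95% interval 0.72 to 1.72, adjusted p = 0.00479). It was the largest difference among the 7 factors in RGCs, in the gene with the fewest reads. More genes had any reads in mKO RGC libraries (22732, 22732 and 23492) than in WT RGC libraries (21211, 21189 and 20695). The part of this shift in the Neurod6 rise was not tested. The call held without each of the 6 libraries in turn, and it was lost once each library's dependence on GC content and on exon coverage was taken out, called both trends below (log2 0.67, adjusted p = 0.114 in limma).

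Neurod2, a NeuroD factor of differentiating neurons, had 524, 521 and 484 normalized reads in mKO RGCs and 806, 777 and 593 in WT RGCs. The genotypes did not overlap, though WT library C came near the mKO range. The log2 difference was -0.50 (SE 0.123, 95% interval -0.79 to -0.21, adjusted p = 0.0184). This call was lost without any 1 of the libraries except WT library C, with adjusted p from 0.0545 to 0.0722, and without the GC trend the difference was -0.05 (adjusted p = 0.842 in limma). Neurod2 is the most GC-rich of the 7 genes, at 58.72% of exon bases.

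Neurod1, which acts in photoreceptor and amacrine differentiation, had 1414, 1424 and 1383 normalized reads in mKO RGCs and 1619, 1660 and 2143 in WT RGCs. The groups did not overlap, and the mKO libraries lay within a narrow range. The log2 difference was -0.35 (SE 0.107, 95% interval -0.60 to -0.10, adjusted p = 0.04). The call was lost without any 1 mKO library (adjusted p from 0.101 to 0.118 in limma). The paper also listed Neurod1 as lower in mKO RGCs, but with a q-value above the threshold used for calls here. The call in limma was thus not shared by the authors' own test. Reads of Neurod1 are partly uncertain, since Cerkl on the same strand and the lincRNA Gm26755 on the opposite strand overlap it, but the group means of these were 36.8 to 94.8 and 3.66 to 10.8 normalized reads, against 1407 to 2340 for Neurod1.

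Neurog2, the proneural factor of the group, and Olig2, a factor of dividing neurogenic progenitors and of the oligodendrocyte lineage, shared a different pattern. Neurog2 had 412, 482 and 387 normalized reads in mKO RGCs and 497, 486 and 1086 in WT RGCs. Olig2 had 150, 182 and 169 in mKO RGCs and 177, 186 and 404 in WT RGCs. For both genes WT library C stood far above the rest, at 2.21 and 2.22 times the mean of WT libraries A and B, while A and B lay near the mKO values. Neurog2 did not overlap between genotypes, yet neither difference passed (Neurog2, log2 -0.59, SE 0.301, adjusted p = 0.165; Olig2, log2 -0.51, SE 0.309, adjusted p = 0.237). Without WT library C the ratio of mKO to WT means was 0.869 for Neurog2 and 0.92 for Olig2, in place of 0.619 and 0.654.

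The same WT RGC library was high for progenitor markers. The summed level of 8 progenitor markers was 978, 1035 and 1639 RPM in WT RGC libraries A, B and C, and 1063, 1146 and 1043 in mKO RGCs. For 5 neurogenic progenitor markers the sums were 277, 273 and 513 in WT RGCs and 247, 282 and 233 in mKO RGCs. No marker of either list was at 0 in all libraries of a group, and the part of these cells in the results was not tested. In bulk libraries, fewer cells of a type and less RNA per cell cannot be told apart.

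Neurod4 (Math3), which acts with Neurod1 in amacrine and bipolar differentiation, had 1928, 1894 and 1775 normalized reads in mKO RGCs and 1818, 2025 and 2769 in WT RGCs. Bhlhe22 (Bhlhb5), a factor of GABAergic amacrine and OFF bipolar cells, had 955, 988 and 907 in mKO RGCs and 840, 888 and 1095 in WT RGCs. Both overlapped between genotypes. The log2 difference of Neurod4 was -0.22 (95% interval -0.56 to 0.13, adjusted p = 0.278), and it became -0.68 (adjusted p = 0.0214 in limma) once the GC trend was removed, in the most AT-rich of the 7 genes (38.0% GC). The log2 difference of Bhlhe22 was 0.02, with an interval from -0.22 to 0.27 (adjusted p = 0.884). Of the 7 factors in RGCs, 4 had no overlap: 3 lay below, where 28.2% of all tested genes did, and 1 above, where 24.7% did.

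**Figure D1:**
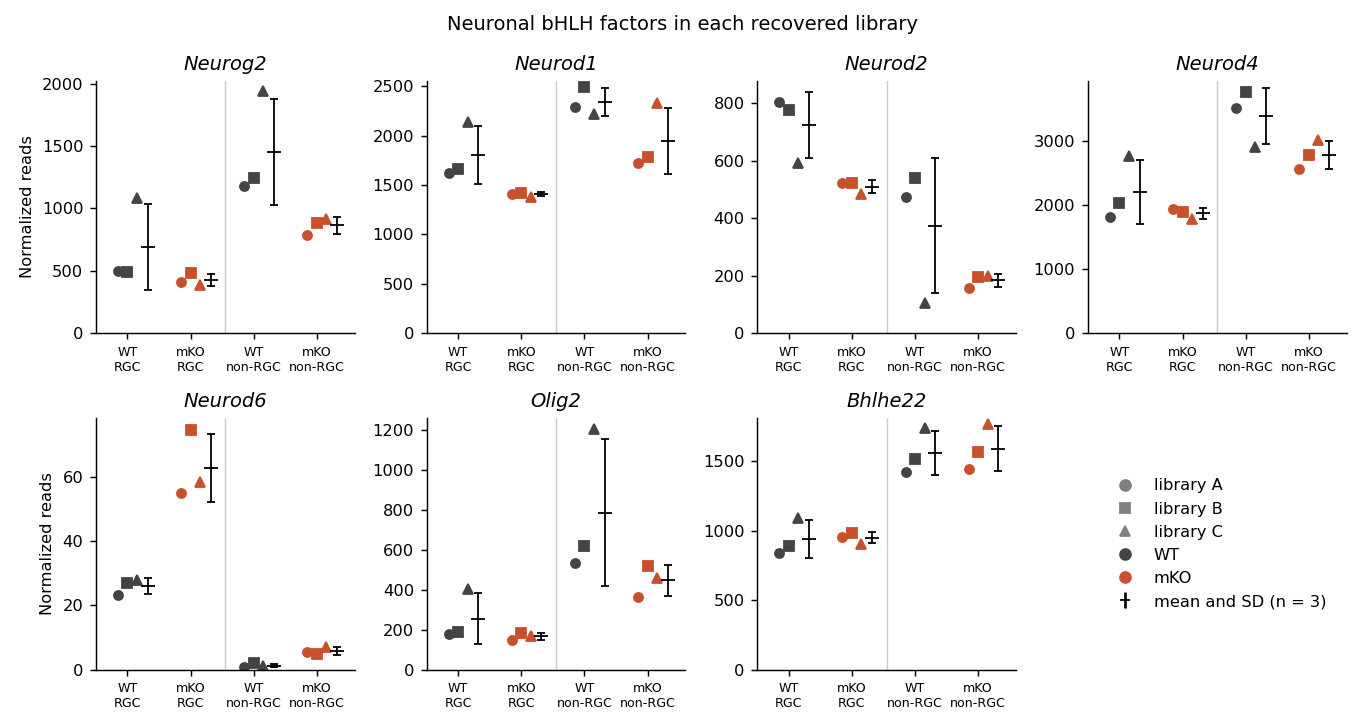
Normalized reads (vertical axes, from 0) of each of the 7 factors in the 12 libraries, with black bars for the mean and SD of 3 libraries; the 2 fractions were normalized separately and are divided by a grey line. In RGCs the mKO libraries of Neurod6 lie above all WT libraries, and WT library C stands apart for Neurog2 and Olig2 in both fractions and for Neurod2 in non-RGCs.

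In non-RGCs, 1 of the 6 factors tested passed: Neurog2 fell 1.64-fold in mKO. Of the other 5, 4 had log2 differences between -0.73 and -0.28, and Bhlhe22 had 0.03. Neurod6 was under the minimum of 10 normalized reads and was not tested. Over the 15326 genes tested in non-RGCs, 4.18% were called higher and 6.43% lower in mKO. The median log2 difference was -0.50 over the 6 factors and -0.03 over all genes.

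Neurog2 had 788, 884 and 918 normalized reads in mKO non-RGCs and 1178, 1242 and 1943 in WT non-RGCs. The mKO libraries were all under the WT libraries, and WT library C of this fraction was the highest, at 1.61 times the mean of A and B. The log2 difference was -0.72 (SE 0.188, 95% interval -1.14 to -0.29, adjusted p = 0.041). Near the threshold, the call was lost without any 1 of mKO libraries A, B and C or WT library B (adjusted p from 0.0612 to 0.136 in limma), with scaling to total reads (0.0712), without the GC trend (0.18) and without both trends (0.212). The log2 difference lay between -0.39 and -0.81 under these settings.

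Olig2 had 365, 517 and 456 normalized reads in mKO non-RGCs and 531, 618 and 1205 in WT non-RGCs. The groups did not overlap, but WT library C was 2.1 times the mean of A and B, and the difference did not pass (log2 -0.73, SE 0.281, adjusted p = 0.118). Of the 6 factors tested, Neurog2 and Olig2 lay below WT in all mKO libraries, as 19.2% of all tested genes did, and none lay above, where 17.5% did. The 4 oligodendrocyte markers summed to 125, 162 and 151 RPM in WT non-RGCs and 144, 132 and 119 in mKO non-RGCs, with 0 called in limma, 1 at an unadjusted p under 0.05 and 1 with limma voom.

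Neurod2 had 156, 195 and 198 normalized reads in mKO non-RGCs and 475, 541 and 105 in WT non-RGCs. WT library C was the lowest of all 6, and the mean of A and B was 4.83 times its value. With that library the log2 difference was -0.72 (SE 0.514, 95% interval -1.87 to 0.43, adjusted p = 0.372), and without it -1.47 (SE 0.169, adjusted p = 0.0104 in limma). So 1 library decided the Neurod2 call in non-RGCs. In WT non-RGC libraries A, B and C, 9 amacrine markers summed to 1575, 1665 and 1584 RPM and 8 photoreceptor precursor markers to 1209, 1333 and 1190 RPM, while 4 microglial markers summed to 20.1, 17.7 and 1.62 RPM. Some single genes were low in library C as Neurod2 was, among them Rcvrn, a photoreceptor gene (196, 245 and 54.2 normalized reads), Rlbp1, a Müller cell gene (1060, 1238 and 449), and Nhlh1, a neuronal bHLH gene (126, 172 and 39.6). The part of other cells in this library's Neurod2 level was not tested.

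The other NeuroD factors had smaller differences. Neurod1 had 1727, 1788 and 2329 normalized reads in mKO non-RGCs and 2294, 2499 and 2225 in WT non-RGCs. Neurod4 had 2565, 2778 and 3005 in mKO and 3508, 3754 and 2902 in WT. For both, mKO library C and WT library C crossed between otherwise separate genotypes, and neither passed (log2 -0.28, adjusted p = 0.206 for Neurod1, and log2 -0.28, adjusted p = 0.172 for Neurod4). Without mKO library C the Neurod1 difference was -0.41 (adjusted p = 0.0448 in limma). Bhlhe22 had 1444, 1569 and 1767 normalized reads in mKO and 1427, 1516 and 1740 in WT, a log2 difference of 0.03 with an interval from -0.26 to 0.32.

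Neurod6 was almost absent from non-RGCs, where the mKO libraries held 7, 5 and 5 reads and the WT libraries 1, 2 and 1. The summed 17 against 4 reads gave a depth-scaled ratio of 4.87, with a 95% exact binomial interval from 1.59 to 19.9 that covers counting error only. The mKO libraries were again all above the WT libraries. Genes with any reads numbered 22528, 21921 and 20511 in mKO non-RGCs and 20712, 20622 and 20072 in WT, and the part of this was not tested. In the same fraction, 7 of 11 RGC markers were called higher in mKO, where 4.18% of all tested genes were, and none lower. With the GC trend or both trends removed, 5 were called higher. Tubb3, on the same list, lay below WT in all mKO libraries but was not called (log2 -0.53, adjusted p = 0.0792 in limma). The summed level of the 11 markers was 602, 724 and 810 RPM in mKO against 513, 539 and 511 in WT. Their part in the Neurod6 reads was not tested.

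**Figure D2:**
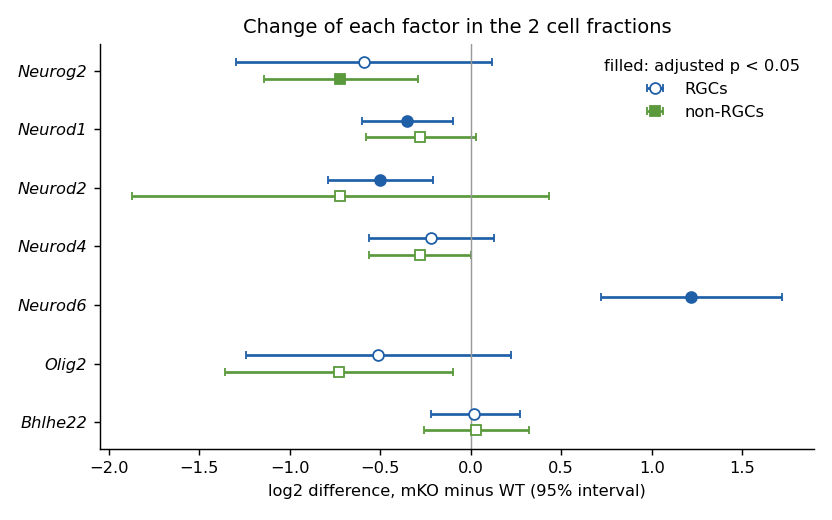
Log2 difference of each factor, mKO minus WT, with its 95% interval, in RGCs (circles) and non-RGCs (squares); filled symbols passed an adjusted p under 0.05 in limma. Neurod6 in RGCs is the 1 filled symbol above 0, at 1.22, and was not tested in non-RGCs; the intervals of the other factors overlap between the fractions.

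The genotype effects were then compared between the fractions, in 1 limma fit over the 12 libraries. The recovered libraries carry no replicate numbers, so RGC and non-RGC libraries could not be paired, and all 12 were treated as independent. The difference of the effects passed the test for 0 of the 6 factors (adjusted p from 0.859 to 0.99), and the count was also 0 at an unadjusted p under 0.05. The differences of the effects were 0.13 for Neurog2, -0.07 for Neurod1, 0.23 for Neurod2, 0.06 for Neurod4, 0.23 for Olig2 and -0.01 for Bhlhe22 on the log2 scale. Their intervals were wide, from -1.13 to 1.58 for Neurod2 and from -0.37 to 0.35 for Bhlhe22. Of 14894 genes, 0.107% were called in this comparison. Thus the calls of Neurod1 and Neurod2 in RGCs alone, and of Neurog2 in non-RGCs alone, do not show that the fractions differ.

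Most of the factors had more RNA in non-RGCs than in RGCs. In RPM, 5 of the 7 factors were lower in every WT RGC library than in every WT non-RGC library, and Neurod6 was higher in every one. Over all 16517 genes compared, 31.6% lay below and 27% above in this way. The mean in non-RGCs was 3.39 times that in RGCs for Olig2, 2.33 times for Neurog2, 1.85 times for Bhlhe22, 1.72 times for Neurod4 and 1.45 times for Neurod1. Summed over libraries, Neurod6 had 72 reads in WT RGCs and 4 in WT non-RGCs, a depth-scaled ratio of 18 (95% exact interval for counting error, 6.75 to 68). The order held in mKO, where the factors lay on the same sides without overlap and the ratio of Neurod6 was 9.69 (5.91 to 17). No test was run across fractions, since these were normalized separately.

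Neurod2 was the other factor with more RNA in RGCs. It had 64.5, 61.4 and 47.9 RPM in WT RGCs and 43.3, 48.9 and 9.10 in WT non-RGCs. These groups overlapped at 1 pair of libraries, and the means differed 1.71-fold. In mKO they were apart, with 46.2, 45.5 and 41.5 in RGCs against 15.8, 19.7 and 19.6 in non-RGCs, a ratio of 2.41. In the reported fit, Neurod2 and Neurod6, the factors with the RGC-sided levels, moved in opposite directions in mKO RGCs. Neurod2 lost its call with the GC trend removed and kept it in 1 of 6 fits that left out a library. Neurod6 lost its call with both trends removed.

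Per kilobase of exon, Neurod4 and Neurod1 had the highest levels in both fractions. In WT non-RGCs, Neurod4 had 90.7 ± 13.9 RPM per kilobase (SD, n = 3), Neurod1 76.6 ± 6.17, Neurog2 58.0 ± 15.1 and Bhlhe22 41.6 ± 3.08. Olig2 followed with 27.5 ± 12, Neurod2 with 10.8 ± 6.86 and Neurod6 with 0.0538 ± 0.0239. Neighbours in this order overlapped for Neurod4 and Neurod1, for Neurod1 and Neurog2, and for Bhlhe22 and Olig2, and were apart elsewhere. In WT RGCs the order was Neurod1 (53.0 ± 9.08), Neurod4 (52.7 ± 12.5), Neurog2 (24.8 ± 12.6), Bhlhe22 (22.5 ± 3.45), Neurod2 (18.4 ± 2.80), Olig2 (8.10 ± 4.16) and Neurod6 (0.972 ± 0.0950). There Neurod1 and Neurod4, Neurog2 and Bhlhe22, and Bhlhe22 and Neurod2 overlapped.

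**Figure D3:**
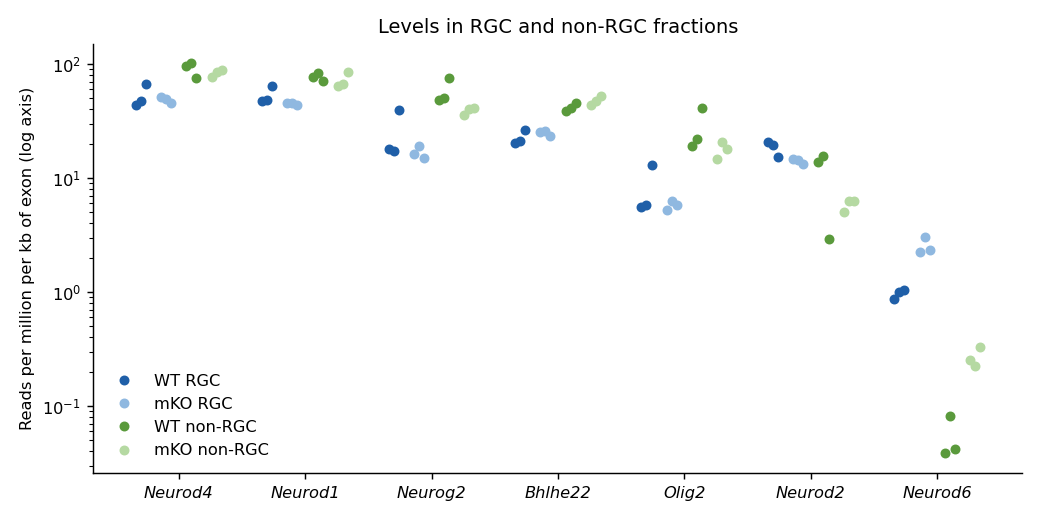
Level of each factor in RPM per kilobase of exon (log axis), in each of the 12 libraries, coloured by genotype and fraction, in the order of the WT non-RGC means. Neurod6 is the lowest factor in all groups and is higher in RGCs, while Olig2, Neurog2, Bhlhe22, Neurod4 and Neurod1 are higher in non-RGCs.

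Several pairs of the factors had high correlations over the libraries of a fraction. For Neurog2 and Olig2 the Pearson r on log2 normalized reads was 0.98 over the 6 RGC libraries (Spearman rho 0.77) and 0.96 over the 6 non-RGC libraries (rho 0.94). After leaving out the 2 libraries farthest from the Neurog2 median it was 0.95 and 0.78. In RGCs Neurog2 also had an r of 0.95 with Neurod1 (rho 0.94) and with Neurod4 (rho 0.60), Neurod4 had 0.95 with Olig2, and Neurod1 had 0.92 with Olig2 and 0.91 with Neurod4. Without the 2 libraries farthest from the median, WT library C among them, these fell to between -0.19 and 0.66. In non-RGCs the r was 0.87 for Neurod2 and Neurod4 (0.01 without 2 libraries) and 0.85 for Neurod1 and Neurod4 (rho 0.94, and an r of 0.78 without 2). The libraries share fraction, genotype and size factors, so these are descriptions. Over all 12 libraries, which fall apart by fraction, the genes most like Neurog2 among 16516 were Dll3 (r = 0.992), Ctdsp1 (0.991) and Tspan14 (0.990), and those most like Olig2 were AI854517 (0.987), Smarcc1 (0.984) and Neurog2 itself (0.984).

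The remaining factors had other neighbours over the 12 libraries. Neurod1 was most like Ubl3 (r = 0.992), Neurod4 like Gm21743 (0.992), Ppp2r5a (0.991) and Aipl1 (0.989), and Bhlhe22 like Pla2g16 (0.995). Neurod2 was most like Cbln1, a secreted synaptic organizer (0.976), followed by Plch2 (0.963). Neurod6 was most like Spin2c (0.988), Gm26894 (0.987) and Gm3252 (0.983). None of the 7 except Olig2 had another of the 7 among its 3 nearest genes.

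Partners, antagonists and targets of these factors were read in the same fits. Of 12 other neuronal bHLH genes, 7 were tested in RGCs, where 0 were called in limma or limma voom and 1 was at an unadjusted p under 0.05 (Tal2, log2 1.26, SE 0.490, adjusted p = 0.0826). In non-RGCs 8 were tested, of which 1 fell and none rose. With scaling to total reads or with the GC trend removed, 1 gene, Nhlh2, was called higher in RGCs, and in non-RGCs 0 were called.

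Atoh7 (Math5), the locus that carries Cre and a proneural factor required for RGC genesis, had 136, 128 and 181 normalized reads in mKO non-RGCs and 239, 224 and 260 in WT non-RGCs. It fell there by 0.71 on the log2 scale (SE 0.198, adjusted p = 0.0492), a call kept in 1 of 6 fits that left out a library. In RGCs it had 54.1, 89.4 and 50.8 in mKO and 81.1, 84.7 and 293 in WT, with WT library C apart, and did not pass (log2 -1.0, SE 0.510, adjusted p = 0.164). A Cre inserted at this locus alters the transcript of its own allele, so that the insertion and a change in expression cannot be told apart.

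Of the 3 E proteins, the shared partners, Tcf3 (E2A) fell in RGCs (log2 -0.75, SE 0.150, adjusted p = 0.00848) and in non-RGCs (log2 -0.59, SE 0.117, adjusted p = 0.0185), and Tcf4 and Tcf12 were not called. Scaled to total reads, Tcf4 was called higher in both. Among 10 Hes, Hey and Id genes, 4 fell in RGCs, where 21.2% of all genes did, and none rose. These were Hes5 (log2 -0.79, adjusted p = 0.00795), Hes6 (log2 -0.74, adjusted p = 0.00608), Hes1 (log2 -0.47, adjusted p = 0.0098) and Id4 (log2 -0.20, adjusted p = 0.0255). Hes5 and Hes1 are Notch effectors, while Hes6 promotes neurogenesis and opposes Hes1. In non-RGCs 0 of the 10 were called in limma, also at an unadjusted p under 0.05 and with limma voom. With both trends removed, Id4 was the only one of these E proteins and antagonists that was called in RGCs. Over the 12 alternatives tried, however, Id4 kept its RGC call in 5, against 11 for Hes1 and 10 each for Hes5, Hes6 and Tcf3.

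Of 12 genes of the neurogenic transition, many of them known targets of proneural factors, 4 fell in RGCs, where 21.2% of all tested genes did, and 5 in non-RGCs, where 6.43% did, and none rose. In RGCs these were Insm1 (log2 -1.06), Sox4 (log2 -0.72), Sox11 (log2 -0.54) and Rnd2 (log2 -0.50), with adjusted p from 0.000674 to 0.00921 in limma. In non-RGCs they were Sox11 (log2 -1.0), Insm1 (log2 -0.97) and the Notch ligand genes Dll1 (log2 -0.70), Dll3 (log2 -0.63) and Dll4 (log2 -0.59), with adjusted p from 0.00603 to 0.0397. The median log2 difference of the 12 genes was -0.57 in RGCs and -0.53 in non-RGCs. Insm1, a zinc finger factor of newborn neurons, had 1198, 1161 and 1076 normalized reads in mKO RGCs and 2060, 2157 and 3063 in WT RGCs, without overlap.

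Sox4 and Sox11, which act in newborn neurons, were the members of this list that kept their RGC calls under all 12 alternatives tried, as Sox11 did in non-RGCs. With both trends removed, 2 of the 12 genes were called lower in RGCs and 1 in non-RGCs, and Rnd2 was no longer lower in RGCs. Sox11 had 1099, 1276 and 1343 normalized reads in mKO RGCs and 1772, 1762 and 1849 in WT RGCs. In non-RGCs it had 978, 800 and 897 in mKO and 1658, 1659 and 2037 in WT. In each fraction the genotypes were apart.

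Among markers of the cell types in which these factors act, some were called too, beside 21.2% of all genes called lower in RGCs and 6.43% in non-RGCs. Of 8 photoreceptor precursor markers, 4 were called lower in mKO RGCs and 5 in mKO non-RGCs, and of 9 amacrine markers 6 and 3 were, with none higher. With both trends removed these counts were 0 and 0 for photoreceptor precursor markers and 4 and 0 for amacrine markers, and scaled to total reads 1 amacrine marker (Gad2) was called higher in RGCs. Photoreceptor precursor markers summed to 600, 596 and 853 RPM in WT RGCs against 582, 572 and 531 in mKO, and to 1209, 1333 and 1190 in WT non-RGCs against 961, 968 and 1092 in mKO. Of 5 neurogenic progenitor markers, 3 were called lower in mKO non-RGCs, 1 (Dll1) with scaling to total reads, and 0 with the GC trend or both trends removed, the settings under which Neurog2 lost its call there. Of 11 RGC markers, 10 were called lower in mKO RGCs, whose sums were 1964 to 2031 RPM against 2531 to 2655 in WT. With both trends removed 2 were called lower (Pou4f1 and Stmn2), and Nefm changed sign. The part of cell composition in the results was not tested.

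Some markers of other cells were called as well. All 3 blood genes were called higher in mKO in both fractions, where 16.3% of all genes in RGCs and 4.18% in non-RGCs were. Their sums were at most 15.7 RPM in RGCs and 43.8 in non-RGCs. In non-RGCs Alas2 rose 8.72-fold, Hbb-bt 5.28-fold and Hba-a1 2.93-fold. Of 4 horizontal cell markers, 1 was called higher in RGCs (Calb1, 1.73-fold) and 1 lower in non-RGCs (Onecut1, 3.03-fold). Of 4 bipolar markers, 2 were tested in each fraction, and Prdm8 was called lower in both fractions. Vsx1 and Grm6 were too low to be tested. Without the filter on low values, both were called higher in mKO non-RGCs, and Prdm8 was still lower. Their mean normalized reads there were 5.88 in mKO against 0.348 in WT for Vsx1, and 4.7 against 0.602 for Grm6. In RGCs without this filter, only Prdm8 was called. Pax2 among 6 astrocyte and Müller markers was called lower in both fractions too (1.58-fold in RGCs, 4.46-fold in non-RGCs), with Glul lower in RGCs. Of the endothelial, microglial, oligodendrocyte and lens markers, 0 were called in limma in either fraction. At an unadjusted p under 0.05 these were 3 microglial markers in RGCs, and 3 endothelial markers and 1 oligodendrocyte marker in non-RGCs, and limma voom called 1 of each of these lists there.

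**Figure D4:**
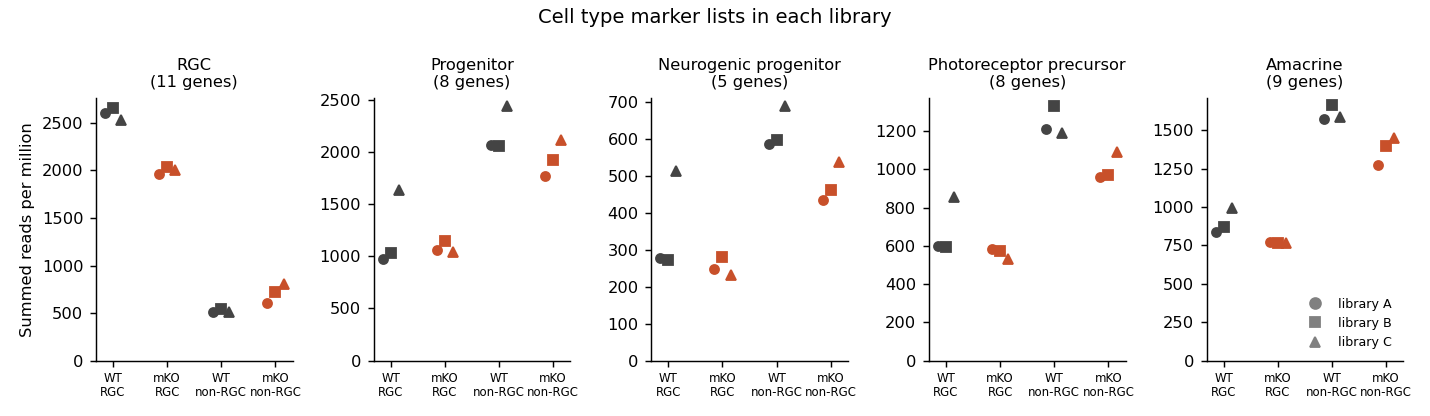
Summed RPM (vertical axes, from 0) of 5 marker lists in each library, WT in grey and mKO in orange. WT RGC library C is high for progenitor, neurogenic progenitor and photoreceptor precursor markers, and the RGC list is lower in mKO RGCs and higher in mKO non-RGCs than in WT.

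Over all genes, 2622 were called higher and 3405 lower in mKO RGCs, and 641 and 985 in mKO non-RGCs. Scaling to total reads moved the median log2 difference of all genes by 0.12 in RGCs and 0.17 in non-RGCs, and the split became 3846 higher and 2240 lower in RGCs and 1329 and 447 in non-RGCs. With that scaling, Neurod6 and Neurod2 were still called in RGCs, while Neurod1 (log2 -0.23, adjusted p = 0.153) and Neurog2 in non-RGCs (log2 -0.55, adjusted p = 0.0712 in limma) were not.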

How the data were processed

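RNA was sequenced from P0 mouse retinal RGCs and non-RGCs, 12 libraries in 4 groups of 3, grouped by the sample labels. The authors selected poly-A RNA, sequenced single-end reads, aligned them to mm10 with STAR (2.3.1z4 in the submitters' processing notes), used featureCounts for the counts of each gene, and ran DESeq on each fraction separately for size factors and tests; the strand setting is not given in the sources used here. The deposited signal values are group means of reads divided by size factors. They carry the label dedup, for reads with duplicates removed, and the effect of that step was not tested. The deposited columns of fold changes and p-values were not used.

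The reads of each library were recovered from the 15 printed digits of these means by a search for whole numbers, with 1 solution for 100% of genes with reads. Tested on simulated means, 3280 of 3280, 3015 of 3015, 3407 of 3407 and 3167 of 3167 genes came back exactly. Recovered libraries carry no replicate numbers. The unit of the files is a mean signal, so reads divided by the authors' size factors were tested with limma 3.58.1 (R 4.3.3, mean-variance trend) on log2(value + 1), which understates changes of low genes, for genes whose mean reached 10 in mKO or WT. On simulated libraries with known changes the fits were tested before use. P-values measure the spread between RNA extractions.

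GC content and exon length come from GENCODE M21 (92.1% of 38720 symbols matched). GC trends were removed by lowess (share 0.3), and the joint trend with GC content and exon coverage (reads per base) as a median over 300 neighbouring genes. The text names the 7 factors, the genes called in 4 fixed lists (up to 6 a list), Atoh7, Ezh2, and the 3 genes most like each factor over the libraries; marker and listed genes named outside these were chosen after their values were seen. Of these, 1 listed gene and 1 gene like a factor are not reported here, and the listed gene was left out of its lists. The members and lists were chosen with earlier results of these data known. Python 3.11.15 with numpy 2.4.6, pandas 2.3.3 and statsmodels 0.14.6 was used.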

Additional observations from a re-analysis of the deposited data

Results flagged for a closer look

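Of the 11 RGC markers, 5 had a genotype effect that differed between the fractions over the 12 libraries in limma. None of the 6 bHLH factors tested did, and over all 14894 genes 0.107% were called. Neurod6 was not tested for this difference. Each of the 5 markers was lower in mKO than WT RGCs and higher in mKO than WT non-RGCs, in every library. The other markers of the list were not called, and of these Tubb3 was lower in mKO in both fractions (log2 -0.68 in RGCs, -0.53 in non-RGCs). The difference of the effects, RGC minus non-RGC, was -4.60 on the log2 scale for Thy1 (adjusted p = 0.00109), -2.21 for Sncg (adjusted p = 0.00109), -2.16 for Pou4f2 (adjusted p = 0.0119), -1.48 for Nefl (adjusted p = 0.00227) and -1.05 for Nefm (adjusted p = 0.0276). Thy1, Sncg and Nefl kept this call in all 13 fits that left out libraries, Pou4f2 in 8 and Nefm in 6. Thy1 is the antigen of the sorting beads. Neurod6 had 17 reads in the 3 mKO and 4 in the 3 WT non-RGC libraries beside these markers, and their part in those reads was not tested.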

How the results depend on the processing

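No paired analysis was possible because the recovered libraries carry no replicate numbers. Of the 7 factors in RGCs, 3 were called as reported, 0 with both trends (GC content and exon coverage) removed, 1 by the study's rule (an unadjusted p under 0.05 and a change of at least 1.5-fold), and 1 to 3 without 1 library. In non-RGCs, 1 was called as reported, 0 with scaling to total reads, without the GC trend and without both trends, 2 by the study's rule (Neurog2 and Olig2), and 0 to 2 without 1 library. Without the filter on low values, Neurod1 in RGCs was at an adjusted p of 0.0513 in limma. None of the 6 factors tested for the difference between fractions was called in any of the 16 alternatives tried for it. Removal of both trends, limma voom and no filter on low values were not among these. Without WT non-RGC library C the difference between fractions of Neurod2 was 0.98 on the log2 scale.

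Over all genes in RGCs, the 6027 called became 2227 with the GC trend removed, 989 with both trends removed, 2615 by the study's rule, and 3776 to 8200 without 1 library. In non-RGCs, the 1626 became 176 with the GC trend removed, 217 with both removed, and 139 (without mKO library B) to 1621 without 1 library. For the difference between fractions, the 16 became 27 with scaling to total reads, 42 without library C of both WT groups (chosen after seeing the data), and 7 to 261 (the latter without mKO non-RGC library A) without 1 library.

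Some log2 differences changed sign without 1 library or with trends removed. Bhlhe22 ran from -0.05 to 0.14 in RGCs and from -0.05 to 0.11 in non-RGCs. The difference between fractions ran from -0.10 to 0.51 for Neurog2, -0.15 to 0.06 for Neurod1, -0.20 to 0.98 for Neurod2, -0.07 to 0.24 for Neurod4, -0.13 to 0.61 for Olig2 and -0.09 to 0.11 for Bhlhe22. With the GC trend removed it was -0.10 for Neurod4 and 0.02 for Bhlhe22, and without library C of both WT groups 0.09 for Neurod1 and 0.03 for Bhlhe22. Ezh2 in RGCs was -0.10 with the GC trend and -0.05 with both trends removed. Rnd2 and Nefm, called lower in mKO RGCs at -0.50 and -0.45, were 0.01 and 0.14 with both trends removed. The cause of these changes was not tested. The fraction side of 6 of the 7 factors in WT held without any 1 WT library, and by median-of-ratios scaling 7 were apart. Depth limits Neurod6 in non-RGCs, at 1 to 7 reads per library.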
